A study of Mus musculus with 8 samples.

Results

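The 10 genes described here are used as markers of meningeal fibroblasts, the connective tissue cells of the membranes that wrap the brain. They are the transcription factor genes Foxc1, Foxc2, Twist1 and Six2, the retinoic acid genes Aldh1a2 and Crabp2, the receptor gene Pdgfra, the transporter gene Slc6a13 and the matrix proteoglycan genes Dcn and Lum. They were chosen by name from the 34299 genes of a table of read counts, and all 10 were found and passed the filter on low counts in each comparison. The study sequenced polyadenylated RNA from whole mouse brain in 8 libraries. Of these, 3 came from wild-type (WT) fetuses at gestation day 15, 3 from fetuses with a Cav1 knockout (KO) at gestation day 15, and 2 from KO brains at week 70. Cav1 encodes caveolin 1, the coat protein of caveolae, and the KO is labelled without a tissue or cell type restriction. The labels call the fetal samples biological replicates, and name no litter, sex or batch, so the p-values measure the spread between these libraries. No WT library at week 70 was analysed here, and whether the meninges were left on the brains is not given in the sources used here.

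The meninges consist of the dura, the arachnoid and the pia, and their fibroblasts in the head arise largely from neural crest and from head mesoderm. Foxc1 and Foxc2 are forkhead transcription factors of this mesenchyme, and Foxc1 is required for normal formation of the fetal meninges and skull. Fetal meninges are a main source of retinoic acid for the developing brain, made there by the enzyme that Aldh1a2 encodes. Because whole tissue was sequenced, fewer fibroblasts in a sample and less RNA of a gene per fibroblast cannot be told apart in any value below.

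The promoters of Foxc1, Aldh1a2, Pdgfra and Six2 are shown because these 4 genes were lower together in the fetal KO libraries. Foxc2 was lower with them, but the promoter set used held no sequence for it. The sequences are from RefSeq on GRCm38.p6, run from 250 bases before to 50 bases after the annotated start, and are written 5′ to 3′ on the strand of the gene. Capitals mark matches on either strand to any of 4 motifs. The GC box was searched as GGGCGG, which the factor Sp1 is known to bind. The TATA box, an element of some core promoters, was searched as TATAAA. The forkhead motif, bound by the family of Foxc1, was searched as GTAAACA. The E-box that Twist1 is known to bind with its partners was searched as CATCTG (matches did not overlap each other in these promoters).
Foxc1: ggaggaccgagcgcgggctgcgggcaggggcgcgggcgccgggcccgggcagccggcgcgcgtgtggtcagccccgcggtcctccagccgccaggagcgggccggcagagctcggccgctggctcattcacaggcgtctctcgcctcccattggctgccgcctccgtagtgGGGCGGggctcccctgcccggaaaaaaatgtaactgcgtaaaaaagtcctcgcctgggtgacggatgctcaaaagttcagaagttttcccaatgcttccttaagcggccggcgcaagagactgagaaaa
Aldh1a2: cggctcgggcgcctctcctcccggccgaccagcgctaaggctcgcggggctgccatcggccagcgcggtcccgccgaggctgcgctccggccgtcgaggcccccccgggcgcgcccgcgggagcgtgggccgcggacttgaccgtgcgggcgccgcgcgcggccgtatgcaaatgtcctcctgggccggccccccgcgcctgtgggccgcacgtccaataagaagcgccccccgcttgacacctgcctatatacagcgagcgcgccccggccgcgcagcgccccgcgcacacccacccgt
Pdgfra: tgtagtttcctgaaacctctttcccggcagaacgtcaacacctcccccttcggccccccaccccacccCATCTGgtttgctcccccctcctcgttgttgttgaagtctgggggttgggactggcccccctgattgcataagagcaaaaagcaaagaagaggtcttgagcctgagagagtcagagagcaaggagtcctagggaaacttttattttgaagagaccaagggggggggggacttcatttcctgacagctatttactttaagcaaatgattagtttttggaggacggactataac
Six2: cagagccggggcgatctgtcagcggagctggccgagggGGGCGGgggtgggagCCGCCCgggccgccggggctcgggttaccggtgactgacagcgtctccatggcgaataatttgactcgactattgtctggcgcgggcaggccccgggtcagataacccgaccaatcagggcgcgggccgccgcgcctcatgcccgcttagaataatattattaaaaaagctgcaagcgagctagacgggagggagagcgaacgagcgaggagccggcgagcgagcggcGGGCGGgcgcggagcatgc
The windows lie at chr13:31806396-31806695 for Foxc1, chr9:71215539-71215838 for Aldh1a2 and chr5:75152001-75152300 for Pdgfra, all on the plus strand, and at chr17:85688205-85688504 on the minus strand for Six2. The promoters of Foxc1, Aldh1a2 and Six2 were rich in G and C, at 67.3%, 78.0% and 67.3%, and held 32, 50 and 37 CpG dinucleotides. The Pdgfra promoter stood apart from them with 51.0% GC and 5 CpG, close to the medians of 52.7% and 7 over 32851 RefSeq mouse promoters. A GC box occurred once in Foxc1 and 3 times in Six2, and 35.7% of all promoters hold at least 1. The E-box occurred once, in Pdgfra, against 17.2% of all promoters. None of the 4 held the TATA box or the forkhead motif, which 13.6% and 3.65% of all promoters hold. The 4 promoters therefore shared no motif among those searched, and a match is a description of the letters only. Among the other members, the Twist1 promoter (66.0% GC) held 1 GC box and 1 TATA box, and Slc6a13 has 3 annotated start sites.

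Depth was 14110031 to 20833397 counts per library, and every fetal KO library was shallower than every WT library. Genotype therefore cannot be told apart from depth or from preparation. Levels are CPM, read counts scaled to library size, with TMM factors that were 1.02 to 1.03 in WT, 1.17 to 1.18 in fetal KO and 0.751 to 0.767 at week 70. A gene with 0 counts may hold up to 3, equal to 0.14 to 0.207 CPM, and these limits cover counting error only. Cav1 had 367, 218 and 329 counts in the WT libraries, at most 3 in a fetal KO library and at most 5 in a week 70 library. WT replicate 1 stood apart, with 648 summed CPM of 8 cartilage and bone markers against 102 and 90.8 in the other WT libraries, and all 8 were highest there among WT. Its 8 skeletal muscle markers summed to 55.3 CPM against 6.99 and 7.9. The members moved with these markers: WT replicate 1 was the highest WT library for 9 of the 10, by a median of 2.25-fold over the mean of the other two (range 1.02 to 12.4), so the members' fetal differences are given with and without it. How far tissue other than brain enters the members' values in that library was not tested.

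**Figure D1:**
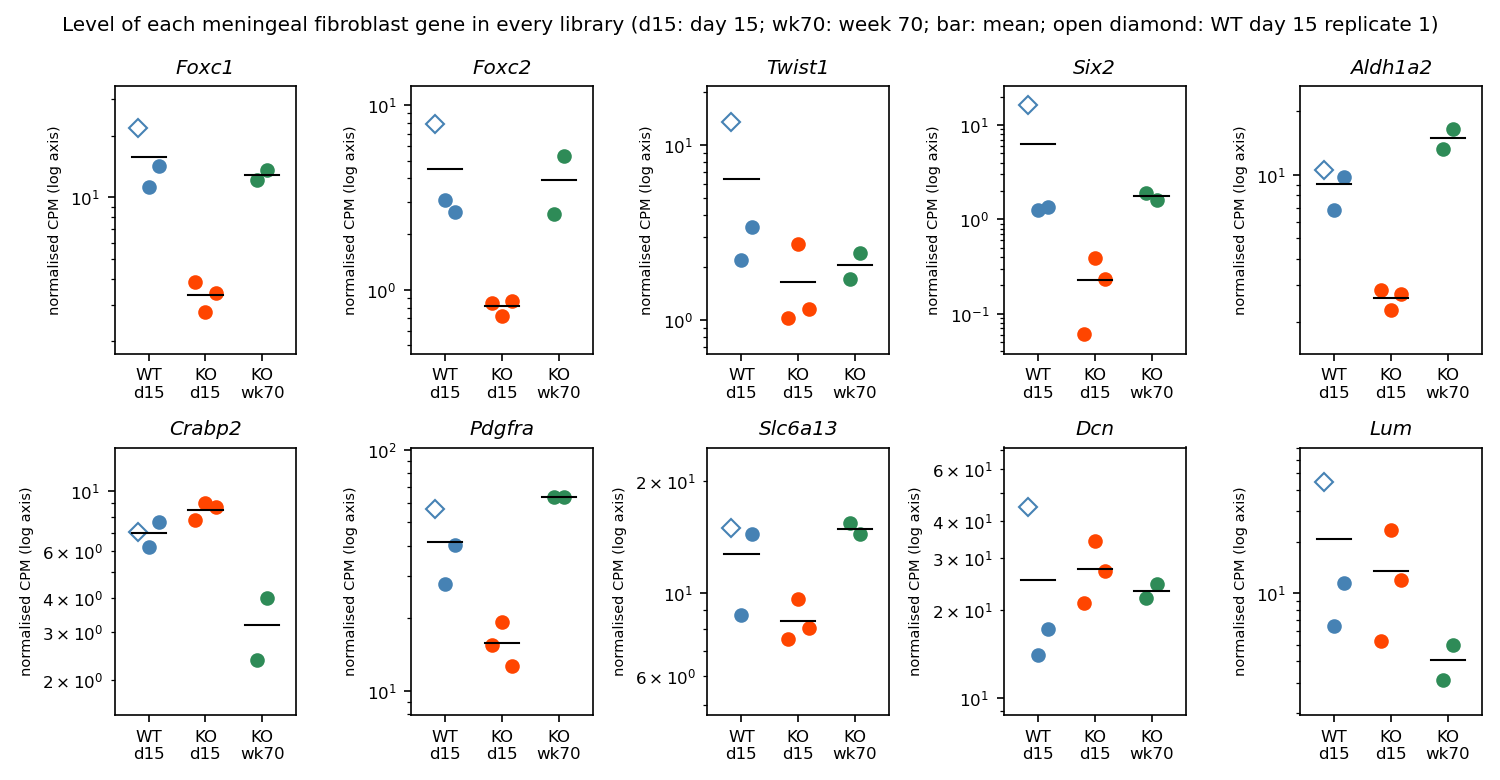
Normalised CPM (log axis, own scale for each gene) of the 10 genes in the 8 libraries, with 1 point per library, black bars for group means and an open diamond for WT replicate 1. For Foxc1, Foxc2, Aldh1a2, Pdgfra and Six2 all 3 fetal KO points lie below all WT points, while for Dcn and Lum the fetal groups overlap.

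The 4 transcription factor genes were lower in fetal KO brain, and Foxc1, Foxc2 and Six2 in each fit that gave an adjusted p. Foxc1 (chromosome 13, 31806633 to 31812476 on GRCm38) was at 21.8, 11.2 and 14.3 CPM in WT replicates 1 to 3 and at 3.88, 2.78 and 3.42 CPM in KO. The groups did not overlap, and leaving out WT replicate 1, the highest WT library, could not change that. The level fell by 2.19 ± 0.239 on the log2 scale (SE), or 4.56-fold, with an adjusted p of 1.78e-05 by edgeR's quasi-likelihood test with Benjamini-Hochberg adjustment over all genes, which applies to every adjusted p unless another fit is named. Foxc2, the paralogue of Foxc1, was at 7.91, 3.05 and 2.62 CPM in WT and at 0.849, 0.723 and 0.87 CPM in KO. All KO libraries were low and close to each other, and the difference was -2.43 ± 0.432 (5.37-fold lower, adjusted p = 0.000622). Without WT replicate 1 Foxc1 differed by -1.91 ± 0.18 (adjusted p = 3.02e-06) and Foxc2 by -1.77 ± 0.285 (3.42-fold lower, adjusted p = 0.000221).

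Six2, a homeobox factor of head and kidney mesenchyme, showed the widest spread among WT libraries. It had 346, 25 and 27 counts in WT (16.2, 1.25 and 1.36 CPM) and 1, 7 and 4 counts in KO (0.0607, 0.39 and 0.232 CPM). KO replicate 1 was below the limit of 3 counts, the 3 KO libraries together held 12 counts, and no KO library reached a WT library. The difference was -4.68 ± 1.14 (adjusted p = 0.00468) with all libraries and -2.44 ± 0.525 (adjusted p = 0.00183) without WT replicate 1, so the size, but not the call, depended on that library. Twist1, a basic helix-loop-helix factor of cranial mesenchyme, was at 13.6, 2.2 and 3.42 CPM in WT and at 1.03, 2.73 and 1.16 CPM in KO. KO replicate 2 lay inside the WT range. Twist1 was called lower (-1.91 ± 0.634, adjusted p = 0.0226), but not without WT replicate 1 (-0.75, adjusted p = 0.122), without KO replicate 1 (-1.68, adjusted p = 0.0787) or without KO replicate 3 (-1.71, adjusted p = 0.0846).

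The 2 retinoic acid genes differed in direction. Aldh1a2, which encodes the dehydrogenase that makes retinoic acid, was at 10.6, 6.79 and 9.76 CPM in WT and at 2.85, 2.28 and 2.73 CPM in KO. The WT libraries were close to each other for this gene, including replicate 1, and lay above all KO libraries. It fell by 1.75 ± 0.2 (3.36-fold, adjusted p = 2.54e-05), and by 1.64 ± 0.211 without WT replicate 1 (adjusted p = 3.75e-05). Crabp2 encodes a carrier that brings retinoic acid to its nuclear receptors. It was at 7.06, 6.19 and 7.64 CPM in WT and at 7.77, 9.02 and 8.7 CPM in KO. Each KO library was above each WT library, by a small margin, and the difference of 0.33 ± 0.139 missed the threshold (adjusted p = 0.0625), as did 0.31 without WT replicate 1 (adjusted p = 0.11).

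Pdgfra encodes a receptor for platelet-derived growth factors, present on fibroblasts and also on oligodendrocyte precursors. Its level was 57.0, 27.8 and 40.2 CPM in WT and 15.5, 19.3 and 12.7 CPM in KO, with no overlap. It fell by 1.35 ± 0.228 (2.55-fold, adjusted p = 0.000427), and by 1.08 ± 0.173 without WT replicate 1 (adjusted p = 0.000208). Oligodendrocyte precursor markers moved with it: 7 of 7 were called lower in KO with or without WT replicate 1. Their summed level was 514 to 534 CPM in WT and 347 to 378 CPM in KO, and none was at 0. Most of each sum was Ptprz1, which averaged 436 CPM in WT and 324 CPM in KO. With a correction for transcript length and GC content, described below, 5 of 7 were called lower, and their median moved from -1.14 to -0.602. The part of these markers in the Pdgfra difference was not tested. Slc6a13, a GABA and taurine transporter of leptomeningeal cells, was at 15.0, 8.74 and 14.4 CPM in WT and at 7.52, 9.63 and 8.06 CPM in KO. KO replicate 2 exceeded WT replicate 2, so the groups overlapped. Slc6a13 was called lower (-0.55 ± 0.195, adjusted p = 0.0298), but lost the call without WT replicate 1 (-0.44, adjusted p = 0.0783), WT replicate 3 (-0.46, adjusted p = 0.0892), KO replicate 1 (-0.49, adjusted p = 0.092) or KO replicate 3 (-0.52, adjusted p = 0.0851).

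The small leucine-rich proteoglycan genes Dcn and Lum were not called between the fetal genotypes with all libraries. Dcn encodes decorin and Lum encodes lumican, both of which bind collagen fibrils, and the genes are neighbours on chromosome 10 (97479609 to 97518143 and 97565128 to 97572703). Dcn was at 44.5, 14.0 and 17.2 CPM in WT and at 21.0, 34.2 and 27.0 CPM in KO. Only WT replicate 1 was above the KO libraries, and both other WT libraries were below them. The difference was 0.16 ± 0.357 with all libraries (adjusted p = 0.704) and 0.84 ± 0.178 without WT replicate 1 (adjusted p = 0.00174). Lum was at 44.3, 6.44 and 11.4 CPM in WT and at 5.28, 23.3 and 11.9 CPM in KO. Both groups spread widely, and neither -0.57 ± 0.637 with all libraries (adjusted p = 0.455) nor 0.63 ± 0.444 without WT replicate 1 (adjusted p = 0.246) passed the test. KO replicate 2 was the highest KO library for 7 of the 10 members, Dcn, Lum and Twist1 included. It also had the highest sum of 6 skin epithelium markers (46.7 CPM, against 17.7 and 24.8 in the other KO libraries) and of skeletal muscle markers (17.8 CPM against 8.19 and 10.6). Their part in these values was not tested.

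**Figure D2:**
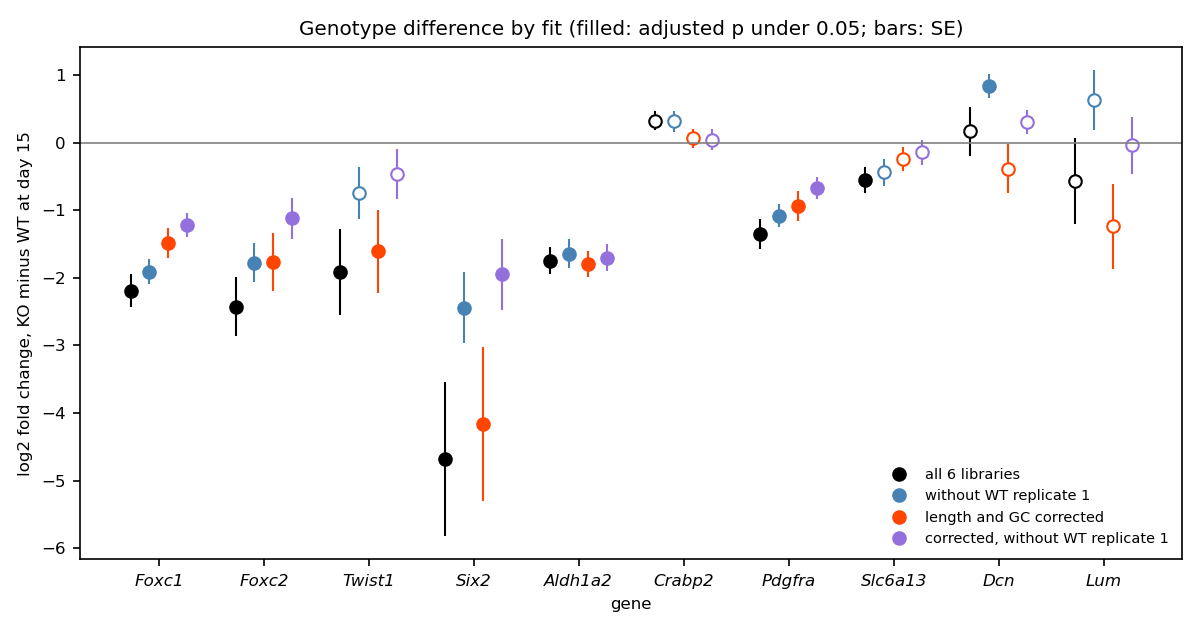
Log2 fold change, fetal KO minus WT, of each gene in 4 fits, with bars of 1 SE and filled points where the adjusted p is under 0.05. Foxc1, Foxc2, Six2, Aldh1a2 and Pdgfra are filled and below 0 in each of the 4, Twist1 and Slc6a13 in some, and Dcn is filled above 0 only without WT replicate 1 and without correction.

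In all, 7 of the 10 members were called lower in fetal KO brain, where 32.5% of the 19147 genes tested were, and 0 were called higher, where 30.1% of all genes were (0 also with DESeq2, and 1, Crabp2, at an unadjusted p of 0.0405). The members' median log2 fold change was -1.55, and that of all genes tested was 0.0287. Without WT replicate 1, 5 members were called lower and 1 higher, against 31.2% and 27.0% of all genes, and the median was -0.91. With all libraries, CPM did not overlap between genotypes for 5 members lower in KO (36.2% of all genes) and 1 member higher (32.1%). Without WT replicate 1 these counts were 5 (38.1%) and 2 (35.2%), Dcn joining Crabp2 among the higher. Leaving out a library cannot make groups overlap, so these counts could not have become smaller. Tested against a log2 fold change of 1, 4 members were called lower (5.52% of all genes). These were Foxc1 (adjusted p = 0.00145), Aldh1a2 (0.00747), Foxc2 (0.0199) and Six2 (0.0459), while Pdgfra (0.205) was not. Foxc1, Foxc2, Aldh1a2 and Pdgfra were called lower in all 17 alternative fits of the genotype comparison that tested against no change, and Six2 in all 16 of these that gave it an adjusted p. Twist1 was called in 10 of 17, Slc6a13 in 7 of 17 and Lum in 0 of 17.

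The members differed in base composition, and removing each library's trend on it changed some calls. Foxc2, Six2 and Twist1 have transcripts of 62.0%, 61.2% and 59.3% GC, at the percentiles 98.0, 97.2 and 93.4 of 15531 protein-coding genes. Dcn and Lum have 37.4% and 41.9%, at the percentiles 1.51 and 11.7, and Aldh1a2 and Crabp2 lie near the median of 49.9%, at 50.6% each. With the trend on transcript length and GC content removed, 6 members were called lower and 0 higher, against 25.7% and 27.3% of all genes. Slc6a13 lost its call (-0.24, adjusted p = 0.291), Aldh1a2 hardly moved (-1.80), and Foxc1 (-1.48), Foxc2 (-1.77) and Pdgfra (-0.94) became smaller but stayed called. With the correction and without WT replicate 1, Foxc1 (-1.22), Foxc2 (-1.12), Aldh1a2 (-1.70), Pdgfra (-0.67) and Six2 (-1.95) were called lower, and none was called higher, against 25.1% and 24.3% of all genes. Dcn (0.31, adjusted p = 0.181) was no longer called in that fit. Aldh1a2 and Crabp2 have the same GC content, and in it they stood at -1.70 and 0.04.

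**Figure D3:**
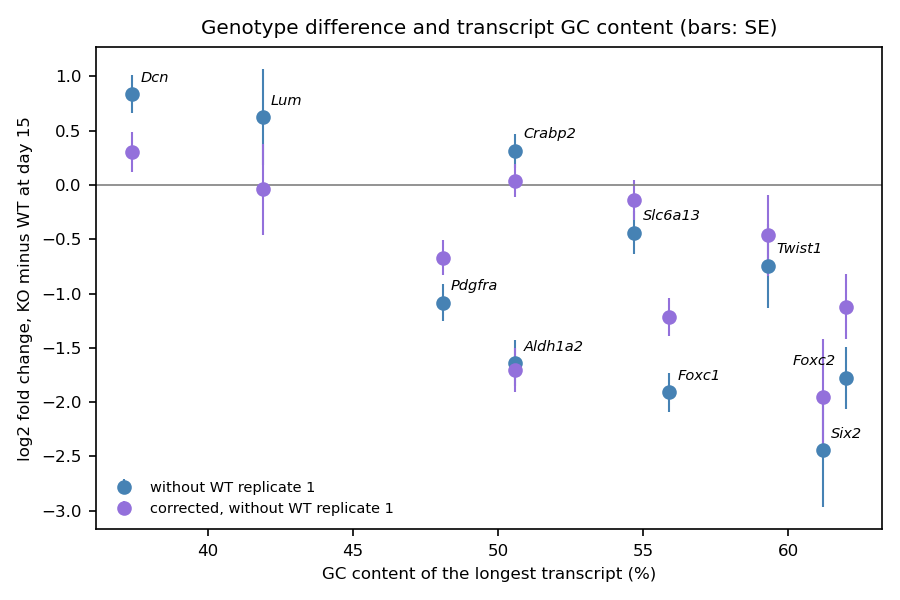
Log2 fold change, fetal KO minus WT without WT replicate 1, against the GC content of the longest transcript in percent, before (blue, named) and after (purple) correction for length and GC, with bars of 1 SE. Dcn and Lum, the genes poorest in GC, are highest before correction, and Aldh1a2 and Crabp2 differ at equal GC content.

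Age was compared within the KO, between 2 libraries at week 70 and 3 at day 15. This comparison shares the fetal KO libraries with the genotype comparison, so their values are set side by side and not counted as independent. The labels give no batch, so neither age here nor genotype above can be told apart from the time of preparation. Aldh1a2 was at 13.3 and 16.5 CPM at week 70, against at most 2.85 CPM in fetal KO, a rise of 2.40 ± 0.207 (5.29-fold, adjusted p = 1.42e-06). Pdgfra stood at 63.5 and 64.0 CPM, the closest pair of any member, and rose by 1.91 ± 0.146 (adjusted p = 5.51e-07). Foxc1 reached 12.1 and 13.6 CPM (1.84 ± 0.208, adjusted p = 1.29e-05). Both libraries of each of these 3 genes lay far above all 3 fetal KO libraries.

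Foxc2 was at 2.57 and 5.31 CPM at week 70 and rose by 2.17 ± 0.395 (adjusted p = 0.000473). Six2, at 29 and 23 counts (1.91 and 1.59 CPM), rose by 2.78 ± 0.575 from the 12 counts of the fetal KO libraries (adjusted p = 0.00109), and Slc6a13, at 15.4 and 14.4 CPM, by 0.73 ± 0.169 (adjusted p = 0.00228). The groups did not overlap for any of these genes. Lum and Crabp2 went the other way. Lum fell to 3.1 and 4.97 CPM (-1.85 ± 0.524, adjusted p = 0.00754) and Crabp2 to 2.37 and 4.0 CPM (-1.52 ± 0.259, adjusted p = 3e-04), each below all fetal KO libraries. Dcn, at 21.9 and 24.5 CPM, and Twist1, at 1.72 and 2.41 CPM, lay within the fetal KO range, with differences of -0.34 ± 0.184 (adjusted p = 0.107) and 0.22 ± 0.463 (adjusted p = 0.665).

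With age, 6 of the 10 members were called higher and 2 lower, where 37.6% and 44.4% of the 20000 genes tested were. The same numbers did not overlap between ages, 6 higher (42.3% of all genes) and 2 lower (45.6%). The median was 1.28 over the members and -0.186 over all genes. With the length and GC correction Slc6a13 (0.24, adjusted p = 0.199) and Lum (-0.96, adjusted p = 0.131) were no longer called. Crabp2 stayed lower (-0.90), and Dcn turned to higher (0.71, adjusted p = 0.00609). The rises of Foxc1 (1.01), Foxc2 (1.11) and Six2 (2.00) were smaller in that fit but stayed called, and Aldh1a2 (2.415) and Pdgfra (1.79) changed little. Aldh1a2, Pdgfra, Foxc1 and Crabp2 kept their call in all 15 alternative fits of this comparison. Foxc2 was called higher in 14 of the 15, Six2 in 13 and Slc6a13 in 12, and Lum was called lower in 12. Dcn was called lower in 3 of the 15, among them the fit without KO day 15 replicate 1 (-0.50, adjusted p = 0.0132). The sum of oligodendrocyte precursor markers was 745 to 748 CPM at week 70, with 6 of 7 called higher, and its part in the rise of Pdgfra was not tested. The choroid plexus markers differed greatly between the 2 libraries, at 73.1 and 2390 summed CPM in replicates 1 and 2. Replicate 2 was the higher for 8 of the 10 members.

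**Figure D4:**
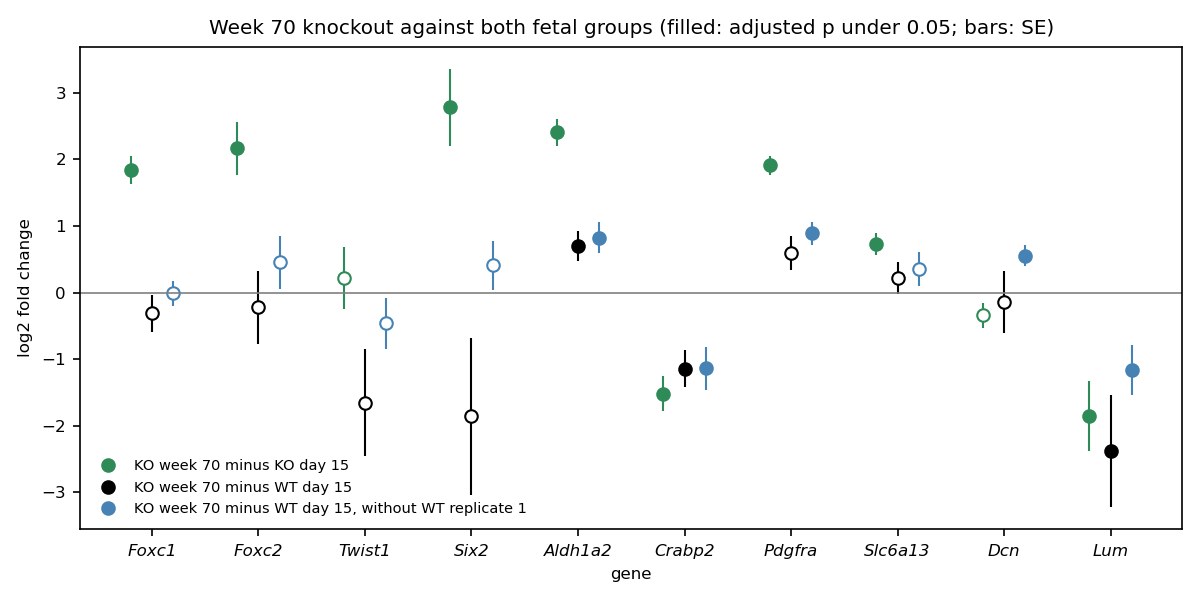
Log2 fold change of the week 70 KO libraries against each fetal group, with bars of 1 SE and filled points where the adjusted p is under 0.05. Aldh1a2 lies above 0 and Lum and Crabp2 below 0 against both fetal groups, while Foxc1, Foxc2 and Six2 are filled above 0 against fetal KO and open against WT.

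Set against the WT fetuses, from which they differ in age and genotype at once, the week 70 KO libraries had few members called. Aldh1a2 was higher (0.70 ± 0.224, adjusted p = 0.0226), and Lum (-2.38 ± 0.842, adjusted p = 0.033) and Crabp2 (-1.14 ± 0.277, adjusted p = 0.0066) were lower, so that 1 of 10 was higher and 2 were lower where 36.7% and 41.9% of the 19465 genes tested were. Foxc1 at week 70 differed from WT day 15 by -0.31 ± 0.277 (adjusted p = 0.329), Foxc2 by -0.22 ± 0.548 (0.724), Slc6a13 by 0.22 ± 0.242 (0.428) and Six2 by -1.86 ± 1.18 (0.182). These p-values do not show equal levels. Without WT replicate 1, 3 members were higher (37.0% of all genes) and 2 lower (39.9%), with Pdgfra (0.89, adjusted p = 0.00303) and Dcn (0.56, adjusted p = 0.0167) joining Aldh1a2, and Six2 stood at 0.41 (adjusted p = 0.34). Without week 70 replicate 2, Aldh1a2 (0.53, adjusted p = 0.119) and Lum (-2.76, adjusted p = 0.0867) were not called, nor was Lum without week 70 replicate 1 (-2.08, adjusted p = 0.152). Twist1 was called lower without WT replicate 2 (-2.03, adjusted p = 0.0335).

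Per kilobase of exon, the order of the members' levels changed from group to group. In WT, Lum was highest (8.46 ± 8.42 CPM per kilobase, SD, n = 3), then Crabp2 (5.27 ± 0.552), Slc6a13, Dcn, Pdgfra, Aldh1a2, Twist1, Six2, Foxc1 and Foxc2 (1.66 ± 1.08), and no neighbours in that order were separated by their ranges. That order rested on WT replicate 1: over WT replicates 2 and 3 alone Crabp2 was first (5.23 ± 0.775, n = 2), then Slc6a13 (3.98 ± 1.37), Aldh1a2 (3.66 ± 0.925), Lum (3.64 ± 1.42), Pdgfra, Dcn (2.67 ± 0.383), Foxc1, Twist1, Foxc2 and Six2 (0.615 ± 0.0364). In fetal KO, Crabp2 led (6.43 ± 0.492), followed by Lum (5.51 ± 3.72), Dcn (4.7 ± 1.13), Slc6a13 (2.89 ± 0.376), Pdgfra (1.58 ± 0.331) and Aldh1a2 (1.16 ± 0.132), and Six2 was last (0.107 ± 0.0776). There Dcn and Slc6a13, Slc6a13 and Pdgfra, Pdgfra and Aldh1a2, Foxc1 and Foxc2, and Foxc2 and Six2 had separate ranges. At week 70 Aldh1a2 (6.57 ± 1.01, n = 2) and Pdgfra (6.36 ± 0.0346) led with overlapping ranges, and Lum had dropped to the seventh place (1.65 ± 0.539). As a share of the members' summed level per kilobase, Crabp2 made up 31.5%, 22.0% and 28.6% in fetal KO and 7.72%, 20.0% and 17.6% in WT. It made up 6.13% and 8.8% at week 70. Dcn took 18.9% to 20.1% in fetal KO and 8.96% to 11.0% in WT, with no overlap.

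**Figure D5:**
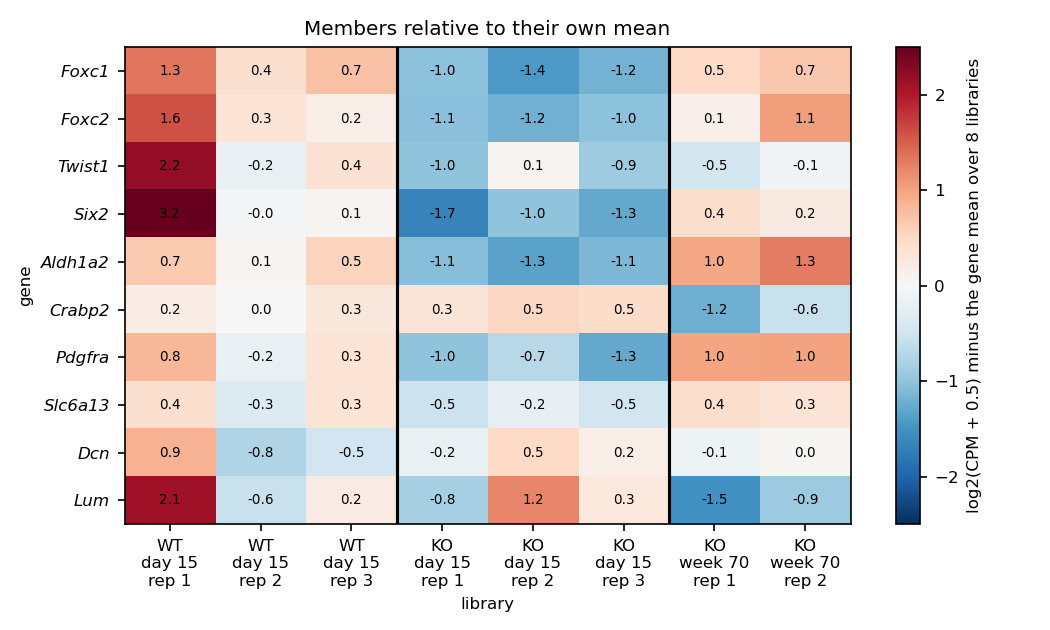
Log2(CPM + 0.5) of each gene minus its own mean over the 8 libraries, with libraries in columns, genes in rows and black lines between the groups. Foxc1, Foxc2, Aldh1a2 and Pdgfra are low in fetal KO and at or above their mean in most other libraries, whereas Crabp2 is below its mean in both week 70 libraries.

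Over the 8 libraries, the profiles that lay closest to each other were those of Aldh1a2 and Pdgfra, with a root mean square difference of 0.283 in centred log2(CPM + 0.5), and of Foxc1 and Foxc2 (0.312). Aldh1a2 and Lum (1.66) and Crabp2 and Six2 (1.66) were farthest apart. Among 12799 other genes, those closest to the members' mean profile were Bicc1 (0.139), Ddr2 (0.14), Cnn2, Pth1r, Mxra8, Rarg, Scarf2 and Loxl3 (0.212), where the median gene lay at 0.787. The members themselves lay farther from their mean, at 0.395 (Slc6a13) to 0.994 (Lum). Lum, Crabp2 (0.926) and Six2 (0.819) lay beyond the median gene, so the mean profile does not describe each member. Ddr2 encodes a collagen receptor, Rarg a retinoic acid receptor and Loxl3 a collagen cross-linking enzyme. Over the 7 libraries without WT replicate 1 the closest were Mxra8 (0.0877), Trp53i13, Fhdc1, Vcam1, Swap70, Wls, Exoc3l and Mief2 (0.14). The median gene there lay at 0.621, and the members Aldh1a2 (0.673), Dcn (0.628), Lum (1.01) and Crabp2 (0.871) lay beyond it. Mxra8 was the only gene in both sets of 8.

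Genes with related roles are given by counts, from lists drawn up by function but with earlier results of these data known. The counts are read beside all genes tested, of which 32.5% were lower and 30.1% higher in fetal KO and 37.6% rose and 44.4% fell with age. For each list below with 0 genes higher between the fetal genotypes, the count was also 0 at an unadjusted p under 0.05 by edgeR and 0 with DESeq2. Of 24 other fibroblast and leptomeningeal genes, 23 were tested between the fetal genotypes, and 16 were lower and 1 higher in KO (median -1.31 on the log2 scale). They were 15 lower and 3 higher without WT replicate 1. The fibronectin gene Fn1 (-2.41, adjusted p = 1.07e-05), the ligand gene Bmp7 (-1.61, adjusted p = 5.05e-06) and Igfbp2 (-1.50, adjusted p = 5.4e-07) were lower, and stood at -2.01, -1.46 and -1.43 without WT replicate 1. S100a6 was higher (1.09, adjusted p = 0.0262, and 1.24 without that library). Its counts were 52, 27 and 43 in WT and 49, 121 and 44 in fetal KO, highest in KO replicate 2. With the length and GC correction it was not called (0.918, adjusted p = 0.0539). With age in the KO, 17 of 24 rose and 1 fell, with Mgp (4.35, adjusted p = 2.16e-09) and the collagen gene Col3a1 (-2.19, adjusted p = 0.000575) as examples. The summed level of the 24 was 5320, 771 and 1050 CPM in WT, 246 to 321 CPM in fetal KO and 1810 to 1830 CPM at week 70. Most of the week 70 sum was Ptgds, which averaged 1250 CPM there, against 21.4 CPM in WT and 26.5 CPM in fetal KO. Among the WT libraries, 23 of the 24 were highest in replicate 1.

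The retinoic acid pathway was mixed, with 9 of 15 tested genes lower in fetal KO and 3 higher (7 and 2 without WT replicate 1, 5 and 4 with the length and GC correction). The vitamin A uptake receptor gene Stra6 (-1.80, adjusted p = 5.11e-06) and the nuclear receptor genes Rxra (-1.62, adjusted p = 2.89e-07) and Rara (-1.43, adjusted p = 9.49e-06) fell with Aldh1a2, and by 1.69, 1.61 and 1.46 without WT replicate 1. Aldh1a1, which encodes another retinaldehyde dehydrogenase, was higher (0.87, adjusted p = 0.00648, and 0.99 without that library). With age in the KO, 8 rose and 3 fell. Aldh1a1 (4.29, adjusted p = 7.89e-10) rose, and Crabp1 (-4.13, adjusted p = 3.05e-05) fell as did its paralogue Crabp2. The retinoic acid degrading enzyme gene Cyp26b1 also fell (-1.65, adjusted p = 1.91e-05). With the length and GC correction the rises of the receptor genes Rara (from 1.03 to 0.00522) and Rarg (from 1 to 0.0252) were lost. Rxrb turned from 0.94 to -0.24 (adjusted p = 0.0211), and the other genes called with age kept their direction and call.

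Among 10 other small leucine-rich proteoglycan genes, 7 were tested between the fetal genotypes, with 3 lower and 0 higher. Fmod (-3.42, adjusted p = 0.000384), Bgn (-2.78, adjusted p = 0.000197) and Prelp (-2.42, adjusted p = 2.05e-06) fell where Dcn and Lum were not called. Without WT replicate 1 Fmod stood at -2.47 (adjusted p = 8.5e-06), Bgn at -2.06 (adjusted p = 3.14e-07) and Prelp at -2.32 (adjusted p = 2.06e-06). In that fit 3 were lower and 2 higher, and the median turned from -0.813 to 0.245. At week 70, 6 of 9 rose and 0 fell (2 fell at an unadjusted p under 0.05, and 1 with DESeq2). Those that rose included Fmod (4.47, adjusted p = 7.97e-09), Prelp (4.24, adjusted p = 4.89e-09) and Omd (3.20, adjusted p = 0.000157). Lum fell in the same comparison. Bgn and Ogn are also in the fibroblast list.

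Of the head mesenchyme transcription factor genes, 11 of 17 tested were lower in fetal KO and 0 higher (10 of 16 without WT replicate 1), including Foxd1 (-3.06, adjusted p = 6.92e-05) and Msx1 (-1.51, adjusted p = 7.35e-05). Foxd1 stood at -2.46 (adjusted p = 2.43e-06) and Msx1 at -1.38 (adjusted p = 0.000108) without WT replicate 1. Both rose with age in the KO, Foxd1 by 2.13 (adjusted p = 7.38e-05) and Msx1 by 1.95 (adjusted p = 0.000929), and in that comparison 6 of 15 were higher, a share near that of all genes, and 1 lower. In the growth factor family of Pdgfra, 3 of 5 genes were lower in fetal KO and 0 higher, with the pericyte receptor gene Pdgfrb at -2.07 (adjusted p = 5.47e-07), and 5 of 5 rose with age. Again 3 of 5 were lower without WT replicate 1, and Pdgfrb stood at -1.95. With the length and GC correction 3 were lower and 1 higher, and the median of the 5 moved from -0.851 to -0.365. Of 5 transporter genes related to Slc6a13, 4 were lower in fetal KO and 0 higher, with or without WT replicate 1, but with the length and GC correction 2 were lower and 2 higher. Slc6a11, a GABA transporter of astrocytes, was lower in fetal KO (-1.66, adjusted p = 0.000114, and -1.83 without WT replicate 1) and higher with age (4.60, adjusted p = 7.15e-09).

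Most markers of blood vessels were also lower in fetal KO. Endothelial markers were called lower for 6 of 7, with or without WT replicate 1, with summed levels of 174 to 241 CPM in WT, 55.7 to 70.5 CPM in fetal KO and 300 to 329 CPM at week 70, and none was at 0. Of the pericyte and smooth muscle markers, 4 of 6 tested were lower and 1 higher in fetal KO, at 152 to 161 summed CPM against 217 to 272 CPM in WT, and the counts were 4 and 1 without WT replicate 1 too. Most of each fetal KO sum was Rgs5, which went the other way, with means of 70.7 CPM in WT and 105 CPM in fetal KO. With age in the KO, 7 of 7 endothelial markers rose, whereas 2 of 6 pericyte and smooth muscle markers rose and 2 fell (median 0.126 on the log2 scale), at 193 to 199 summed CPM at week 70. Cartilage and bone markers were at 44.3 to 49.1 summed CPM in fetal KO, with Matn1 at 0 in all 3 of these libraries and in WT replicate 3. Of these, 5 of 5 tested were lower in KO with all libraries and 1 of 4 tested without WT replicate 1. The part of these cells in the members' differences was not tested.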

How the data were processed

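The values are raw read counts per Ensembl gene for 8 libraries, deposited by the authors in 1 table, per the file headers. The submitters' processing notes name FastQC, cutadapt, Trimmomatic, HISAT2, featureCounts and edgeR, and the builds GRCm38 and GRCm39, with no role for either build. Versions, strand settings and the treatment of multi-mapping reads are not given in the sources used here. Groups followed the sample titles. The members and lists were chosen with earlier results of these data known.

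Each comparison used only its own groups in edgeR 4.0.16 (R 4.3.3): genes were kept by filterByExpr, scaled by TMM, and tested with the two-sided quasi-likelihood F-test. P-values were adjusted by the Benjamini-Hochberg method over all genes tested, with a threshold of 0.05. The SE of a log2 fold change is the one implied by the F statistic. Levels are CPM after TMM over all 8 libraries, and levels per kilobase use the union of exons in GENCODE release M 21 on GRCm38, which matched 33367 gene identifiers (97.3%) and also gave GC content and positions. Promoters came from RefSeq, which matched 6 of the 10 members by symbol.

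Alternatives were DESeq2 1.42.0, scaling by RLE or by the upper quartile, no filter on low counts or one at a mean of 10, one fit of all 8 libraries, the replicate number as a block, an offset for length and GC content smoothed with mgcv 1.9.3, a test against a log2 fold change of 1, and each library left out in turn. Total counts with no scaling factor were added after seeing the data. The text names every member, up to 3 genes per list and direction with the smallest adjusted p and no overlap between groups, and the 8 genes with the most similar profile (mean of at least 50 counts). Ptprz1, Ptgds and Rgs5 beside the sums of their lists, and Rara, Rarg and Rxrb with age, were named after their values were seen. The scripts were tested on simulated data.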

Additional observations from a re-analysis of the deposited data

How the results depend on the processing

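Foxc1, Foxc2, Aldh1a2 and Pdgfra were called lower in fetal KO in all 17 alternative fits that tested against no change, and Six2 in the 16 of these that gave it an adjusted p. In that comparison the number of members called higher was 1 with upper-quartile scaling and 1 with total counts (Crabp2 in both), and 4 were called lower against a log2 fold change of 1. The members' median was -0.567 with the length and GC correction and without WT replicate 1. Dcn turned to -0.385 with the correction and to -0.235 with the correction and the block. Over the fits that left out 1 library each, the number called higher was 0 to 1, the median ran from -1.75 to -0.915 (the latter without WT replicate 1), Dcn from -0.135 to 0.837 and Lum from -1.24 to 0.625. For age in the KO, the median was 1.03 with upper-quartile scaling, 0.863 with the correction, 0.884 with the correction and the block, and 0.75 with total counts. The number called lower was 1 with all 8 libraries in one fit, 1 with the correction and 1 with the correction and the block. Dcn turned to 0.714 with the correction and 0.684 with the block added. Twist1 turned to -0.0281 with upper-quartile scaling, -0.14 with the correction, -0.18 with the block added and -0.307 with total counts, and ran from -0.0419 to 0.807 with 1 library left out. For KO week 70 minus WT day 15, 2 members were called higher with RLE size factors, with DESeq2, with all 8 libraries and with the correction, and 0 were higher and 4 lower with total counts. Dcn turned to 0.299 with the correction and 0.294 with the block added, and Slc6a13 to -0.0391 with the correction and -0.2 with total counts. With 1 library left out, 0 to 3 members were higher and 1 to 3 lower, the median ran from -0.614 to 0.38, Foxc2 from -0.832 to 0.452, Dcn from -0.402 to 0.557 and Six2 from -2.31 to 0.408. The cause of these shifts was not tested. Upper-quartile scaling and total counts moved the median of all genes from 0.0287 to 0.201 and 0.19 between the fetal genotypes, and from -0.186 to -0.436 and -0.718 with age, and values under them are read against those medians.

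Same-numbered fetal libraries deviated from their group means with correlations of -0.145, -0.175 and -0.153 over genes, and no library correlated best with its own number. Differently numbered fetal libraries correlated at 0.0611 to 0.0871. Deviations from a mean of 3 libraries are tied to each other, so these values show no positive pairing but cannot exclude a shared structure. With the replicate number as a block, 5 members were called lower between the fetal genotypes and 1 was lower in KO week 70 minus WT day 15.

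Precision is limited by 2 libraries at week 70 and by low counts of Six2, Foxc2 and Twist1 in fetal KO, where a library held 1 to 49 counts of them. Where 1 library left out leaves a lone week 70 sample, that sample is assumed to vary like the fetal libraries. DESeq2 gave no p-value, adjusted or unadjusted, for Six2 between the fetal genotypes, where the WT libraries held 346, 25 and 27 counts. That fit therefore neither made nor refused a call for Six2, and low counts in KO do not account for the missing value.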

Other observations

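Col3a1, a fibrillar collagen gene of the fibroblast list, was lower in fetal KO by a difference of -3.86 ± 0.599 on the log2 scale (SE, adjusted p = 0.000235 by edgeR) and of -2.86 without WT replicate 1 (adjusted p = 6.37e-06). Its counts were 12494, 2131 and 3537 in WT, 177, 542 and 285 in fetal KO, and 53 and 80 at week 70. With age in the KO it fell by 2.19 (adjusted p = 0.000575), a comparison that shares the fetal KO libraries with the first. It and the following genes outside the rule were chosen after their values were seen.

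Ptgds, the prostaglandin D synthase gene of leptomeningeal cells and oligodendrocytes, had 439, 462 and 408 counts in WT, 167, 554 and 662 in fetal KO, and 19090 and 18019 at week 70. The fetal groups overlapped (0.35 ± 0.346, adjusted p = 0.395), and the rise with age in the KO was 5.46 ± 0.395 (adjusted p = 3.51e-07). Tbx18, a transcription factor gene of mesenchyme and pericytes, was lower in fetal KO (-1.00 ± 0.24, adjusted p = 0.00417) and was not called with age (-0.53 ± 0.268, adjusted p = 0.0904).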
